A study of Mus musculus with 5 samples.

Results

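The genes described here are 37 transcription factors and coactivators of the basic helix-loop-helix (bHLH) family, the Id proteins, the E proteins and the circadian clock factors left aside. They were taken by symbol from a list drawn up with earlier results of these data known, and no measured value entered the rule. All 37 had an entry among the 46983 genes of the count table, and all 37 passed the expression filter that left 16436 genes for the test. The RNA came from Kupffer cells, the resident macrophages of the liver, of mice labelled Id3 -/- (knockout, 2 libraries, replicates 2 and 3) or Id3 +/- (heterozygous, 3 libraries, replicates 1, 2 and 3). The heterozygous controls carry 1 functional copy of Id3, and no wild-type group is part of the comparison. The sources used here give no strain, age, sex, removed part of Id3 or driver of its deletion, and a "3w" in the column names is not explained. The labels do not say whether each library is a separate animal, and the p-values rest on a spread between samples that may be technical only.

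Proteins of the bHLH family dimerise through the helix-loop-helix and bind DNA through the basic region, mostly at E-boxes with the core CANNTG. Id proteins such as Id3 carry the dimerisation region but no basic region, and hold their partners, chiefly the E proteins, away from DNA. The factors treated here are further branches of the family. Many add a leucine zipper (MYC, MAX, MiT/TFE, USF, SREBP, MLX) or a PAS domain (HIF, ARNT, AHR) that sets which partner each can take, so the relative levels of partners matter to how such factors work. In macrophages they are known for control of lysosomes, lipid synthesis, the response to oxygen and growth.

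Gene-assigned reads came to 77322672 and 75770751 in the knockout and 80944135, 77749614 and 74823374 in the heterozygous libraries. Id3 had 1.01 and 1.42 TMM-normalised CPM (reads of a gene scaled to a common library total) in knockout libraries, against 229, 222 and 256 CPM in heterozygous libraries, so the libraries stood where their labels put them. All 12 Kupffer cell markers were detected in every library, with a summed level of 59208 and 51802 CPM in knockout and 50643 to 53652 CPM in heterozygous libraries. Of these 12, edgeR called 2 higher and 1 lower (25%, against 16.4% of all genes). DESeq2 called 4 higher and 4 lower, and 4557 of all 16436 genes. Monocyte markers summed to 974 and 987 CPM in knockout against 662 to 881 CPM in heterozygous libraries, with 2 of 8 tested higher. Summed markers of hepatocytes were 5237 and 12056 CPM in knockout against 24173 to 29080 CPM in heterozygous libraries, and 13 of 16 passed as lower. Endothelial markers summed to 1034 and 963 CPM in knockout against 1094 to 1280 CPM in heterozygous libraries, with 5 of 11 lower. Neutrophil markers summed to 215 and 33.0 CPM in knockout against 7.4 to 11.6 CPM in heterozygous libraries. Of the 7 neutrophil markers tested 4 passed as higher, while Mpo, Cxcr2, Ngp, Ltf or Camp were at 0 in 1 or more of the other 4 libraries and none was at 0 in knockout replicate 2. Genes induced by handling and dissociation summed to 2515 and 2013 CPM in knockout against 806 to 837 CPM in heterozygous libraries, with 9 of 12 higher. In bulk RNA, fewer cells of a type and less RNA per cell cannot be told apart. Genes differed by composition as well: the 25% with the lowest GC content had a median log2 fold change of -0.44 (knockout over heterozygous), and the 25% with the highest GC content one of 0.27.

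In Kupffer cells without Id3, the repressor gene Bhlhe40, the lysosome regulator Tfe3, the lipogenic factor Srebf1 and the MAX partner Mxd1 were higher. Lower were the oxygen-regulated Hif1a and Epas1, the xenobiotic receptor gene Ahr, the MiT/TFE member Tfec, the sugar-responsive factor Mlxipl and the coactivator Ncoa2. These 10 of 37 genes (27%), 4 higher and 6 lower, passed at an adjusted p under 0.05 in edgeR's quasi-likelihood test, adjusted over all genes tested. Of all 16436 genes, 16.4% passed, 6.41% as higher and 10.0% as lower. The 37 genes had a median log2 fold change of -0.04, and all genes one of -0.02. The libraries of the genotypes did not overlap for 22 of the 37 genes (59.5%), 11 in each direction, against 51.5% of all genes, a share near that background. With 2 libraries against 3, an exact permutation test of a single gene cannot give a two-sided p below 0.1.

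The calls depended on single libraries. All 10 genes kept their direction in each of the 16 other fits, but Bhlhe40 alone passed in all 5 fits that left out 1 library. The number of these 37 genes that passed was 3 without knockout replicate 2, 9 without knockout replicate 3, and 2, 1 and 10 without heterozygous replicates 1, 2 and 3. Over all genes the corresponding counts were 903, 2243, 463, 335 and 2540, against 2698 with all libraries. Upper-quartile scaling in place of TMM changed the split of all passing genes to 1443 higher and 1499 lower, against 1054 higher and 1644 lower, and among the 37 genes it gave 4 higher and 5 lower. When each library was adjusted for transcript length and GC content, 7 of the 37 genes passed (10.2% of all genes): Hes1, which did not pass in edgeR without the adjustment, and Bhlhe40, Tfe3, Mxd1, Mlxipl, Epas1 and Ahr.

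**Figure D1:**
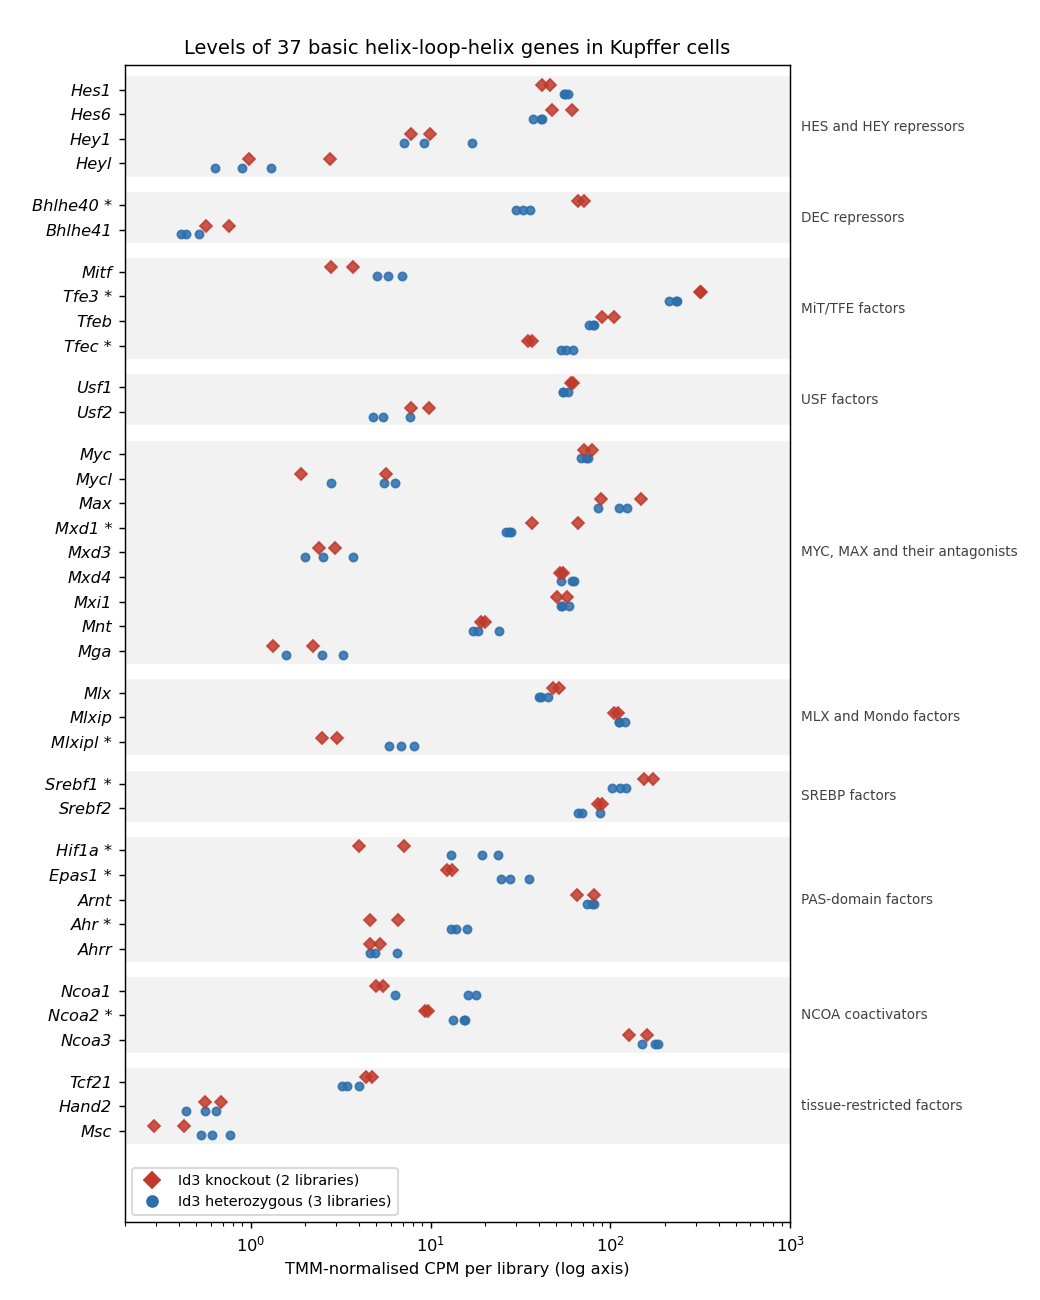
TMM-normalised CPM on a log axis for the 37 bHLH genes, grouped by role, with 1 point per library (diamonds for the 2 Id3 knockout and circles for the 3 heterozygous libraries, replicates not joined). An asterisk marks the 10 genes with an edgeR adjusted p under 0.05; the diamonds of Hif1a, Epas1 and Ahr lie left of all their circles, those of Bhlhe40, Tfe3 and Srebf1 right of them.

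**Figure D2:**
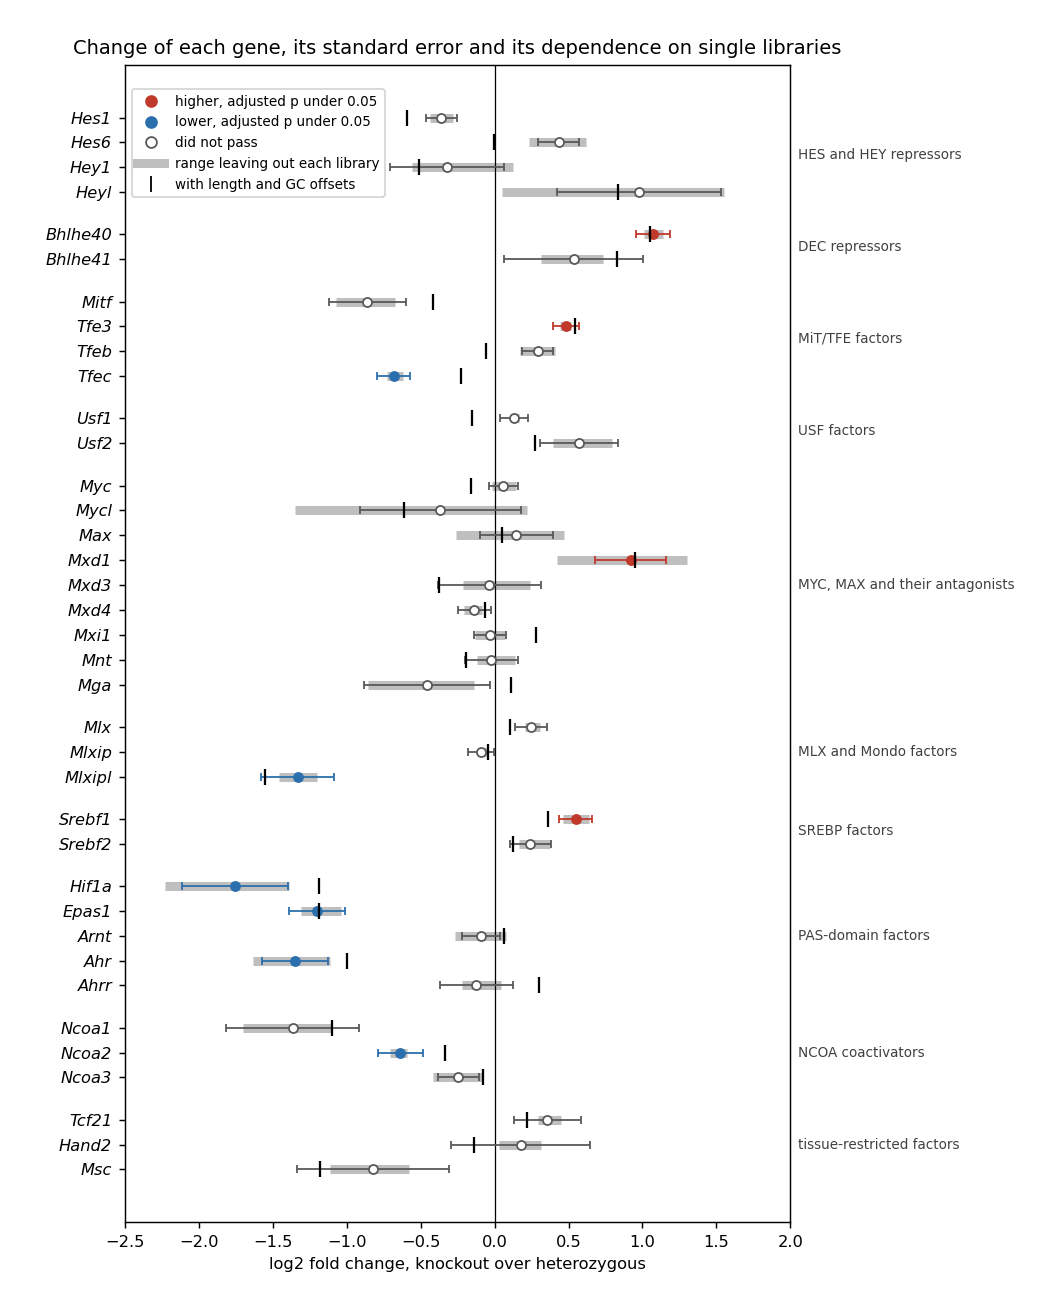
Log2 fold change, knockout over heterozygous, of each of the 37 genes, grouped by role. Points are the edgeR estimate over 2 knockout and 3 heterozygous libraries, bars are 1 SE, and filled red or blue points passed as higher (4) or lower (6) while open points did not. Grey bands give the range when each library is left out, narrow for Bhlhe40 (1.01 to 1.14) and wide for Mxd1 (0.42 to 1.3), and black ticks the estimate after adjustment for transcript length and GC content.

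Many HES and HEY factors are Notch-induced repressors, HES proteins recruit Groucho/TLE corepressors, and Hes6 is an atypical member that antagonises Hes1. In edgeR, where 16.4% of all genes passed, and in limma-voom 0 of the 4 passed. In each, 2 had an unadjusted p under 0.05, as did 5499 of all 16436 genes in edgeR. DESeq2 called Hes6 higher and Hes1 lower, among 4557 genes that it called in all. Hes1 had 41.4 and 46.4 CPM in knockout against 54.99, 56.0 and 58.1 CPM in heterozygous libraries. Both knockout libraries were below all heterozygous ones, and the log2 fold change was -0.36 ± 0.10 (SE; edgeR adjusted p = 0.063). After adjustment for length and GC content this was -0.59 and passed (edgeR adjusted p = 0.0223). Hes6 had 61.0 and 47.1 CPM in knockout against 41.2, 37.3 and 41.6 CPM in heterozygous libraries. The groups did not overlap (0.43 ± 0.14, edgeR adjusted p = 0.0847), but the estimate was -0.0023 after the length and GC adjustment, and Hes6 passed without knockout replicate 3 (0.62) and under the 1 CPM filter (0.46). Per kilobase of exon, Hes6 made up 58.5% and 50.7% of the summed level of the 4 genes in knockout libraries, against 41.3%, 40.4% and 42.6% in heterozygous libraries. Hes1 accounted for 35.3% and 44.3% in knockout and 49.0%, 53.8% and 52.9% in heterozygous libraries, so Hes6 was above Hes1 in both knockout libraries and below it in all 3 heterozygous ones. Hey1 (9.95 and 7.80 CPM in knockout, 16.9, 9.15 and 7.14 CPM in heterozygous libraries) and Heyl (2.75 and 0.982 CPM in knockout, 0.901, 0.634 and 1.304 CPM in heterozygous libraries) overlapped between genotypes.

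Among 25 Notch pathway genes 2 passed as higher and 3 as lower, with a median log2 fold change of 0.02. That is 20%, near the 16.4% of all genes (6.41% higher, 10.0% lower). The shedding protease Adam10 fell to 22.7 and 20.1 CPM in knockout, against 81.0, 103 and 59.3 CPM in heterozygous libraries (-1.92 ± 0.24, edgeR adjusted p = 0.00997). Its relative Adam17 fell as well (-0.96 ± 0.19, edgeR adjusted p = 0.0245), and so did the coactivator Maml2 (-2.28 ± 0.48, edgeR adjusted p = 0.0289). Nicastrin, Ncstn, a subunit of gamma-secretase, rose (0.40 ± 0.08, edgeR adjusted p = 0.0289). Adam10 passed whichever library was left out. Adam17 (-1.02 to -0.77) and Ncstn (0.32 to 0.40) did not pass without knockout replicate 2, heterozygous replicate 1 or heterozygous replicate 2, nor Maml2 (-2.33 to -1.76) without knockout replicate 3 or heterozygous replicate 1 or 2. Of 13 corepressor genes 1 passed as higher and 2 as lower (23.1%, against 16.4% of all genes), with a median of -0.43. The Groucho gene Tle3 fell (-0.96 ± 0.17, edgeR adjusted p = 0.0201). The SIN3 scaffolds, which MXD and MNT proteins recruit, moved apart: Sin3a fell (-0.75 ± 0.16, edgeR adjusted p = 0.0326) and Sin3b rose (0.49 ± 0.10, edgeR adjusted p = 0.0297). Aes, a short Groucho relative, had 0.16 ± 0.11 (edgeR adjusted p = 0.355). Tle3 did not pass without knockout replicate 2 or heterozygous replicate 1 or 2 (-1.03 to -0.82), Sin3b without any library but heterozygous replicate 3 (0.43 to 0.56), and Sin3a without any of the 5 (-0.84 to -0.67).

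Bhlhe40 and Bhlhe41 encode the DEC repressors, which bind CACGTG and, in macrophages, are known to act on activation and self-renewal. Bhlhe40 had 71.3 and 66.1 CPM in knockout libraries, against 32.5, 29.9 and 35.7 CPM in heterozygous libraries. Every knockout value was well above every heterozygous one, at 1.07 ± 0.12 on the log2 scale (edgeR adjusted p = 0.00766), the smallest adjusted p of the 37 genes. It stayed between 1.01 and 1.14 whichever library was left out and was 1.05 after the length and GC adjustment. The handling and dissociation genes, 9 of 12 of which rose, were high in the same 2 libraries, and their part in this result was not tested. Bhlhe41 was low throughout, at 0.756 and 0.569 CPM in knockout and 0.438, 0.520 and 0.412 CPM in heterozygous libraries (0.53 ± 0.47, edgeR adjusted p = 0.487), and 19.0% of its exon length is shared with a gene model on the opposite strand. Per kilobase, Bhlhe40 was 135 and 166 times Bhlhe41 in knockout libraries and 106, 82.1 and 124 times in heterozygous libraries.

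The MiT/TFE factors drive lysosome and autophagy genes, and their passage from the cytoplasm to the nucleus is under the control of mTORC1. Tfec is the member largely restricted to macrophages. None of the 4 genes overlapped between genotypes, while 51.5% of all genes did not (24.6% higher, 26.9% lower). In direction they split, 2 higher and 2 lower. Tfe3 had 318 and 313 CPM in knockout libraries, against 235, 211 and 230 CPM in heterozygous libraries. It rose, by 0.48 ± 0.09 on the log2 scale (edgeR adjusted p = 0.0201). Tfec fell to 34.6 and 36.7 CPM in knockout, against 61.7, 56.5 and 53.4 CPM in heterozygous libraries (-0.68 ± 0.11, edgeR adjusted p = 0.0167). Tfeb had 105 and 89.7 CPM in knockout and 80.4, 76.5 and 81.4 CPM in heterozygous libraries, which did not pass (0.29 ± 0.10, edgeR adjusted p = 0.105) and was -0.06 after the length and GC adjustment. Mitf, the melanocyte and osteoclast regulator, had 2.81 and 3.72 CPM in knockout and 6.93, 5.83 and 5.03 CPM in heterozygous libraries and did not pass either (-0.86 ± 0.26, edgeR adjusted p = 0.0725). DESeq2 called both, Tfeb at 0.32 (adjusted p = 0.0442) and Mitf at -0.84 (adjusted p = 0.0194).

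Per kilobase, the summed level of the 4 MiT/TFE genes was 59.4 and 56.8 CPM per kb in knockout and 51.7, 47.3 and 49.6 CPM per kb in heterozygous libraries. Tfe3 supplied 57.8% and 59.5% of it in knockout, against 49.0%, 48.1% and 50.2% in heterozygous libraries. Tfec supplied 10.4% and 11.6% in knockout, against 21.4%, 21.4% and 19.2% in heterozygous libraries. The ratio of Tfe3 to Tfec was thus 5.54 and 5.15 in knockout and 2.30, 2.26 and 2.61 in heterozygous libraries. Neither call held without knockout replicate 2 or heterozygous replicate 1 or 2, with Tfe3 at 0.44 to 0.52 and Tfec at -0.69 to -0.62. The transcripts differ in base composition, with 52.1% GC for Tfe3 and 40.3%, the lowest of the 37 genes, for Tfec. After the length and GC adjustment Tfe3 was at 0.54 (edgeR adjusted p = 0.0223) and Tfec at -0.23, which did not pass (edgeR adjusted p = 0.192). Tfe3 lies on the X chromosome; Xist was at 0.0531 CPM or less and the Y-linked Eif2s3y at 4.57 CPM or more in all 5 libraries.

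**Figure D3:**
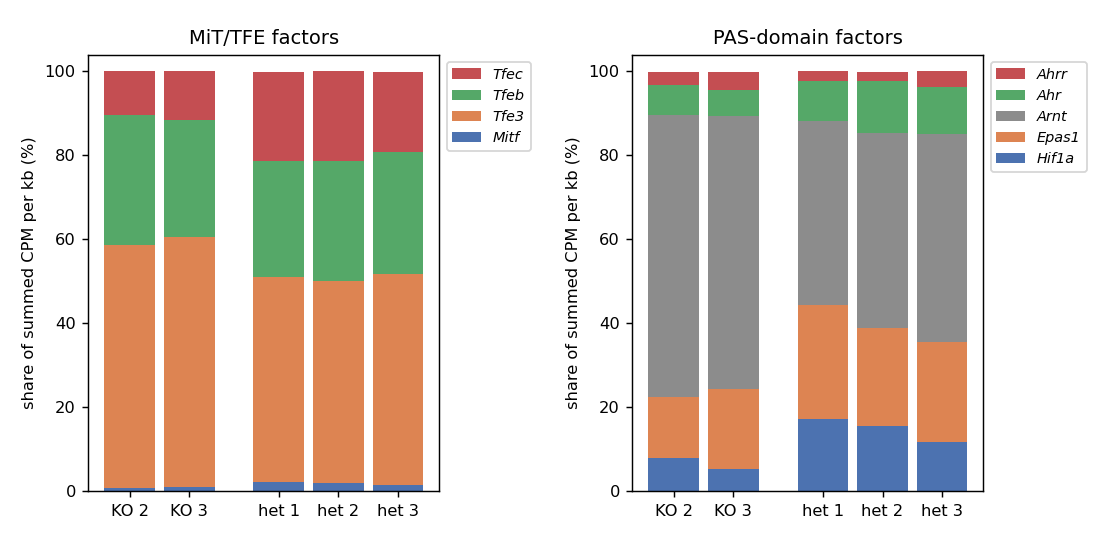
Share of each gene, in percent, of the summed CPM per kilobase of exon in its group, for the MiT/TFE factors and the PAS-domain factors, with 1 stacked bar per library and the 2 knockout libraries left of the 3 heterozygous ones. Tfec takes 10.4% and 11.6% in knockout bars against 19.2% to 21.4% in heterozygous bars, and Arnt takes 67.2% and 65.1% against 43.7% to 49.5%.

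Genes that hold MiT/TFE factors at the lysosome or act there gave 3 of 17 higher and 0 lower in edgeR, with a median of 0.01. The share was 17.6%, against 16.4% of all genes. In edgeR 4 had a negative fold change at an unadjusted p under 0.05. Such a p, in either direction, was found for 5499 of all 16436 genes. DESeq2 called 6 higher and 3 lower, and of all genes 2037 higher and 2520 lower. The folliculin gene Flcn (0.62 ± 0.12, edgeR adjusted p = 0.0244), the Ragulator anchor Lamtor1 (0.55 ± 0.10, edgeR adjusted p = 0.0229) and the lysosomal calcium channel Mcoln1 (0.40 ± 0.10, edgeR adjusted p = 0.0405) rose. The Rag GTPase Rragc had 0.18 ± 0.10 (edgeR adjusted p = 0.291). Among 28 lysosome and autophagy genes of the CLEAR network, 7 rose and 2 fell (32.1%, against 16.4% of all genes). The median was 0.34, against -0.02 for all genes. Acp5, the tartrate-resistant acid phosphatase, had 1188 and 1174 CPM in knockout, against 690, 723 and 712 CPM in heterozygous libraries (0.74 ± 0.07, edgeR adjusted p = 0.00671). The autophagy receptor Sqstm1 (0.55 ± 0.09, edgeR adjusted p = 0.0169) and Gabarapl1, an ATG8 family member (0.39 ± 0.09, edgeR adjusted p = 0.0346), also rose. The proton pump subunit Atp6v0d2 fell (-2.44 ± 0.55, edgeR adjusted p = 0.0346), at under 1 CPM in every library, and the protease Ctsb had 0.04 ± 0.11 (edgeR adjusted p = 0.852). Acp5 passed whichever library was left out. Lamtor1 (0.50 to 0.53), Sqstm1 (0.48 to 0.58) and Gabarapl1 (0.33 to 0.38) did not pass without knockout replicate 2 or heterozygous replicate 1 or 2. Flcn failed without those and heterozygous replicate 3 (0.47 to 0.70), and Mcoln1 (0.37 to 0.46) and Atp6v0d2 (-2.61 to -2.26) without any of the 5.

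The USF factors bind the same CACGTG motif as broadly expressed homo- and heterodimers. Usf1 had 61.9 and 60.4 CPM in knockout against 54.5, 54.8 and 58.2 CPM in heterozygous libraries, and Usf2 had 9.83 and 7.82 CPM in knockout against 7.64, 5.42 and 4.76 CPM in heterozygous libraries. The groups did not overlap for either gene, as for 51.5% of all genes. In edgeR, DESeq2 and limma-voom 0 of the 2 passed or had an unadjusted p under 0.05. The changes were 0.13 ± 0.09 (edgeR adjusted p = 0.375) for Usf1 and 0.57 ± 0.26 (edgeR adjusted p = 0.192) for Usf2. For Usf1 the estimate was -0.16 after the length and GC adjustment. Other gene models cover 7.1% of the exon length of Usf1 and 9.1% of that of Usf2.

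MYC binds DNA with MAX and drives growth, and the MXD, MXI1, MNT and MGA proteins compete for MAX and recruit repressors. Of these 9 genes 1 passed (11.1%), against 16.4% of all genes. Mxd1, which rises as myeloid cells mature, had 66.4 and 36.6 CPM in knockout libraries, against 27.4, 27.9 and 26.4 CPM in heterozygous libraries. Both knockout libraries were above the narrow heterozygous range, with replicate 2 far above replicate 3 (0.92 ± 0.24, edgeR adjusted p = 0.0487). Without knockout replicate 2 the estimate was 0.42, without heterozygous replicate 1, 2 or 3 it was 0.93, 0.94 and 0.90, and in each of these fits Mxd1 did not pass. It passed only without knockout replicate 3, at 1.3, and limma-voom gave 0.85 (adjusted p = 0.0594). The neutrophil marker sum was likewise highest in knockout replicate 2 (215 CPM, against 33.0 CPM in knockout replicate 3 and at most 11.6 CPM in heterozygous libraries). That library also had the highest sum for T and NK cell (111 CPM), B cell (528 CPM) and dendritic cell (51.9 CPM) markers. The same held for Kupffer cell, stellate cell and dissociation genes, but not for monocyte, hepatocyte, endothelial or red cell markers. The part of these sums in the Mxd1 result was not tested.

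Myc itself had 79.1 and 71.2 CPM in knockout and 74.9, 73.1 and 68.5 CPM in heterozygous libraries, the groups overlapping (0.06 ± 0.10, edgeR adjusted p = 0.739). Its dimer partner Max varied more between libraries than between genotypes, at 88.3 and 148 CPM in knockout and 85.7, 112 and 123 CPM in heterozygous libraries (0.15 ± 0.25, edgeR adjusted p = 0.738). The other antagonists overlapped between genotypes as well: Mxd4 at -0.14 ± 0.11, Mxi1 at -0.03 ± 0.11, Mnt at -0.02 ± 0.18, Mxd3 at -0.04 ± 0.35 and Mga at -0.46 ± 0.43, with edgeR adjusted p of 0.45 to 0.96. Mycl, a MYC paralog known for its expression in dendritic cells, had 5.65 and 1.91 CPM in knockout and 6.33, 2.81 and 5.49 CPM in heterozygous libraries (-0.37 ± 0.54, edgeR adjusted p = 0.699). Per kilobase, Mxd1 stood at 0.322 and 0.197 of the level of Myc in knockout and at 0.141, 0.146 and 0.148 of it in heterozygous libraries.

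Of 25 ribosome biogenesis and growth genes known as MYC targets, 1 rose and 5 fell (24%, against 16.4% of all genes). The median was -0.22. The nucleolar gene Rrp9 rose (0.81 ± 0.12, edgeR adjusted p = 0.0144). The ribosome assembly factor Pno1 (-0.78 ± 0.14, edgeR adjusted p = 0.0198), nucleophosmin, Npm1 (-0.99 ± 0.22, edgeR adjusted p = 0.0323), and nucleolin, Ncl (-1.15 ± 0.26, edgeR adjusted p = 0.0335), fell. The cell cycle kinase gene Cdk4 had 0.27 ± 0.11 (edgeR adjusted p = 0.157). Rrp9 did not pass without heterozygous replicate 1 or 2 (0.81 and 0.84) and Pno1 without those or knockout replicate 2 (-0.84 to -0.70). Npm1 (-1.11 to -0.83) and Ncl (-1.34 to -0.94) passed in none of the 5 fits that left out a library.

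MLX is the partner of MondoA (Mlxip) and ChREBP (Mlxipl), which sense glucose metabolites and drive genes of sugar use and lipogenesis. Mlxipl fell to 2.51 and 3.02 CPM in knockout, against 5.90, 8.11 and 6.87 CPM in heterozygous libraries (-1.33 ± 0.25, edgeR adjusted p = 0.022). Both knockout values were below all heterozygous values, at counts of 189 to 640 reads per library. Mlxipl did not pass without knockout replicate 2, heterozygous replicate 1 or heterozygous replicate 2 (-1.44 to -1.20). ChREBP is known for its high expression in hepatocytes. Hepatocyte markers, with 13 of 16 lower and none at 0 in any library, summed to 5237 and 12056 CPM in knockout and 24173 to 29080 CPM in heterozygous libraries. Their part in this result was not tested. Mlx had 48.1 and 51.8 CPM in knockout and 41.0, 39.8 and 45.2 CPM in heterozygous libraries (0.25 ± 0.11, edgeR adjusted p = 0.169), with 19.3% of its exon length shared with Psmc3ip on the opposite strand. Mlxip had 105 and 110 CPM in knockout and 120, 111 and 112 CPM in heterozygous libraries (-0.09 ± 0.09, edgeR adjusted p = 0.539). Per kilobase, Mlxip was 27.8 and 24.2 times Mlxipl in knockout libraries and 13.5, 9.10 and 10.8 times in heterozygous libraries.

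The 10 tested genes known to be induced through MondoA or ChREBP held 0 higher and 5 lower in edgeR, with a median of -0.89. The share was 50%, against 16.4% of all genes. In edgeR 2 had a positive fold change at an unadjusted p under 0.05. Such a p, in either direction, was found for 5499 of all 16436 genes. DESeq2 called 1 higher and 5 lower, and of all genes 2037 higher and 2520 lower. Glycerol-3-phosphate dehydrogenase, Gpd1, had 16.0 and 13.5 CPM in knockout, against 63.9, 46.7 and 46.3 CPM in heterozygous libraries (-1.82 ± 0.20, edgeR adjusted p = 0.00761). The fructose pathway gene Tkfc (-1.52 ± 0.19, edgeR adjusted p = 0.00957) and the liver pyruvate kinase gene Pklr (-1.94 ± 0.28, edgeR adjusted p = 0.0124) fell too. Pklr did not pass without heterozygous replicate 1 or 2 (-1.80 and -1.92). Txnip, the classic MondoA target, had 967 and 979 CPM in knockout and 1106, 1048 and 1000 CPM in heterozygous libraries (-0.11 ± 0.08, edgeR adjusted p = 0.395). Gpd1, Tkfc and Pklr are abundant in hepatocytes, whose marker sum was also lower in both knockout libraries, and the part of these cells was not tested.

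SREBP proteins are cut free from the endoplasmic reticulum when sterols are low, Srebf1 serving mainly fatty acid and Srebf2 mainly cholesterol synthesis. Srebf1 had 173 and 154 CPM in knockout libraries, against 113, 102 and 121 CPM in heterozygous libraries. It rose by 0.55 ± 0.11 on the log2 scale (edgeR adjusted p = 0.026), with no overlap of the groups. The call was lost without knockout replicate 2 or heterozygous replicate 1 or 2 (0.46 to 0.56) and after the length and GC adjustment (0.36, edgeR adjusted p = 0.0534). Srebf2 had 85.3 and 89.9 CPM in knockout and 66.1, 69.2 and 87.0 CPM in heterozygous libraries, and the groups overlapped (0.24 ± 0.14, edgeR adjusted p = 0.283).

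Of 11 genes for escort, retention and cleavage of SREBP or for induction of Srebf1, 1 rose and 1 fell, with a median of -0.12. The share was 18.2%, against 16.4% of all genes. Nr1h2, which encodes LXR-beta, rose (0.60 ± 0.11, edgeR adjusted p = 0.0231), and Insig2, which retains SREBP in the endoplasmic reticulum, fell (-0.63 ± 0.13, edgeR adjusted p = 0.0268). Nr1h3, which encodes LXR-alpha, was at 756 and 907 CPM in knockout and 811, 777 and 905 CPM in heterozygous libraries (edgeR adjusted p = 0.999). Nr1h2 did not pass without knockout replicate 2 or heterozygous replicate 1 or 2 (0.43 to 0.59), nor Insig2 without any library but heterozygous replicate 3 (-0.66 to -0.56). Among 25 sterol and fatty acid genes 1 rose and 5 fell (24%, against 16.4% of all genes). The median was -0.44, while Srebf1 itself was higher. Acacb, the mitochondrial acetyl-CoA carboxylase, fell to 0.690 and 1.01 CPM in knockout, against 9.37, 10.6 and 9.32 CPM in heterozygous libraries (-3.52 ± 0.27, edgeR adjusted p = 0.00369). The desaturase Scd1 had 77.5 and 70.8 CPM in knockout, against 191, 170 and 181 CPM in heterozygous libraries (-1.28 ± 0.10, edgeR adjusted p = 0.00369). Fatty acid synthase, Fasn (-1.01 ± 0.14, edgeR adjusted p = 0.0122), and malic enzyme, Me1 (-1.48 ± 0.23, edgeR adjusted p = 0.0152), fell as well, whereas ATP citrate lyase, Acly, had 0.02 ± 0.18 (edgeR adjusted p = 0.958). Acacb and Scd1 passed whichever library was left out, but Fasn did not without knockout replicate 2 or heterozygous replicate 2 (-0.999 and -1.04), nor Me1 without those or heterozygous replicate 1 (-1.47 to -1.33). The hepatocyte marker sum was lower in the same libraries as these genes, and its part in their values was not tested.

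**Figure D4:**
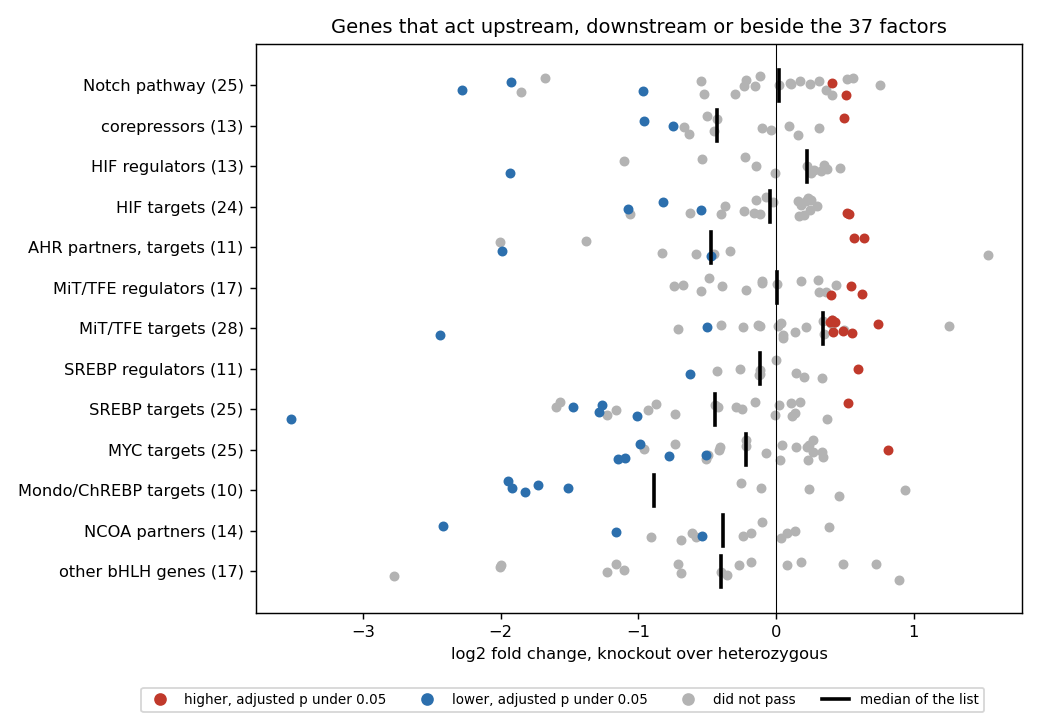
Log2 fold change, knockout over heterozygous, of every tested gene in 13 lists of genes that act upstream, downstream or beside the 37 factors, with the number tested in brackets. Red and blue points passed as higher or lower at an edgeR adjusted p under 0.05, grey points did not, and the black bar is the median of the list: 0.34 for MiT/TFE targets, -0.44 for SREBP targets and -0.89 for Mondo/ChREBP targets.

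HIF-1alpha (Hif1a) and HIF-2alpha (Epas1) are degraded when oxygen is present and otherwise pair with ARNT, the partner that the xenobiotic receptor AHR also needs. AHRR competes with AHR for ARNT. Hif1a, Epas1 and Ahr each fell, and the partner gene Arnt did not pass. Hif1a, 8.1% of whose exon length lies in other gene models, had 7.10 and 3.99 CPM in knockout libraries, against 23.7, 19.4 and 12.99 CPM in heterozygous libraries. Its highest knockout value was below its lowest heterozygous one (-1.75 ± 0.36, edgeR adjusted p = 0.0266). Epas1 fell to 12.3 and 13.2 CPM in knockout, against 35.4, 27.8 and 24.6 CPM in heterozygous libraries (-1.20 ± 0.19, edgeR adjusted p = 0.0155). Ahr fell to 6.58 and 4.63 CPM in knockout, against 13.9, 16.0 and 12.97 CPM in heterozygous libraries (-1.35 ± 0.22, edgeR adjusted p = 0.0167). The groups overlapped for Arnt, at 81.5 and 64.9 CPM in knockout and 81.4, 78.8 and 73.7 CPM in heterozygous libraries (-0.09 ± 0.13, edgeR adjusted p = 0.672), and for Ahrr, at 4.60 and 5.21 CPM in knockout and 4.92, 4.59 and 6.52 CPM in heterozygous libraries (-0.12 ± 0.24, edgeR adjusted p = 0.782).

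Each of these 3 calls rested on several libraries. Hif1a did not pass without knockout replicate 3 (-1.39) or heterozygous replicate 1 (-1.55) or 2 (-1.72). Epas1 did not without knockout replicate 2 (-1.16) or heterozygous replicate 2 (-1.23), nor Ahr without heterozygous replicate 1 (-1.37) or 2 (-1.26). After the length and GC adjustment Hif1a, a transcript of 41.3% GC, was at -1.19 and did not pass (edgeR adjusted p = 0.086), while Epas1 at -1.19 (edgeR adjusted p = 0.0205) and Ahr at -1.0 (edgeR adjusted p = 0.0351) did. Epas1 is known for strong expression in endothelium, whose markers summed to 1034 and 963 CPM in knockout and 1094 to 1280 CPM in heterozygous libraries with none at 0. Hepatocyte markers differed more, at 5237 and 12056 CPM in knockout and 24173 to 29080 CPM in heterozygous libraries. The part of either cell type in the values of Hif1a, Epas1 and Ahr was not tested. Per kilobase, Arnt made up 67.2% and 65.1% of the 5 PAS-domain genes in knockout, against 43.7%, 46.4% and 49.5% in heterozygous libraries. Relative to Arnt, Hif1a stood at 0.118 and 0.0836 in knockout against 0.395, 0.335 and 0.239 in heterozygous libraries, Epas1 at 0.216 and 0.291 against 0.623, 0.506 and 0.478, and Ahr at 0.105 and 0.0926 against 0.221, 0.264 and 0.229. None of these ratios overlapped between genotypes.

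Among 13 oxygen-sensing and degradation genes of HIF, 0 rose and 1 fell in edgeR (7.69%, against 16.4% of all genes), with a median of 0.22. In edgeR 3 had a positive fold change at an unadjusted p under 0.05. Such a p, in either direction, was found for 5499 of all 16436 genes. DESeq2 called 2 higher and 1 lower, and of all genes 2037 higher and 2520 lower. Cul2, the cullin of the ligase that degrades HIF, fell (-1.93 ± 0.36, edgeR adjusted p = 0.0218), and the prolyl hydroxylase gene Egln2 had 0.37 ± 0.12 (edgeR adjusted p = 0.0803) and passed in DESeq2 (0.39) and under the 1 CPM filter (0.40). Of 24 genes known to be induced through HIF, 2 rose and 3 fell (20.8%, against 16.4% of all genes), with a median of -0.05. The mitophagy receptor Bnip3l (-1.08 ± 0.19, edgeR adjusted p = 0.0195), the collagen prolyl hydroxylase P4ha1 (-0.54 ± 0.10, edgeR adjusted p = 0.0227) and the oxidoreductase Ero1l (-0.82 ± 0.18, edgeR adjusted p = 0.0337) fell. The glycolytic gene Aldoa rose (0.51 ± 0.11, edgeR adjusted p = 0.0308), and lactate dehydrogenase, Ldha, had -0.15 ± 0.11 (edgeR adjusted p = 0.408). Bnip3l (-1.04 to -0.98) and Aldoa (0.45 to 0.48) did not pass without knockout replicate 2 or heterozygous replicate 1 or 2. Cul2 (-2.15 to -1.73) and P4ha1 (-0.55 to -0.48) failed without any library but heterozygous replicate 3, and Ero1l (-0.86 to -0.61) without any but knockout replicate 2.

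Of 11 tested AHR chaperones and AHR-induced genes 2 rose and 2 fell (36.4%, against 16.4% of all genes), with a median of -0.48. Lpcat2, a lysophospholipid acyltransferase, rose (0.64 ± 0.10, edgeR adjusted p = 0.014). Cyp1a2, the AHR-induced cytochrome of hepatocytes, fell to 26.9 and 55.9 CPM in knockout, against 162, 158 and 173 CPM in heterozygous libraries (-1.99 ± 0.30, edgeR adjusted p = 0.0147). The hepatocyte marker sum was lower in the same libraries, and its part in this value was not tested. The chaperone Hsp90ab1 fell (-0.48 ± 0.11, edgeR adjusted p = 0.0374), and Nfe2l2, the NRF2 gene, had -0.58 ± 0.16 and did not pass (edgeR adjusted p = 0.0552). Cyp1a2 did not pass without heterozygous replicate 2 (-2.01), Lpcat2 without heterozygous replicate 1 or 2 (0.63 and 0.62), and Hsp90ab1 without any library but knockout replicate 3 (-0.53 to -0.36) or with upper-quartile scaling (-0.41). Nfe2l2 passed without heterozygous replicate 3 (-0.69), and with all libraries in DESeq2 (-0.56, adjusted p = 0.00775), limma-voom (-0.58, adjusted p = 0.0466) and edgeR under the 1 CPM filter (-0.55, adjusted p = 0.0331).

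The p160 coactivators bring acetyltransferases to nuclear receptors and contain an amino-terminal bHLH-PAS region. Ncoa2 had 9.28 and 9.65 CPM in knockout libraries, against 15.3, 15.6 and 13.3 CPM in heterozygous libraries. The knockout libraries were close to each other and below all heterozygous ones (-0.64 ± 0.15, edgeR adjusted p = 0.0407). Ncoa2 did not pass without any library but heterozygous replicate 3 (-0.65 to -0.59), nor with upper-quartile scaling (-0.57) or no filter (-0.63), nor after the length and GC adjustment (-0.34, edgeR adjusted p = 0.16). Ncoa1 had 4.99 and 5.44 CPM in knockout against 17.9, 16.1 and 6.33 CPM in heterozygous libraries. Heterozygous replicate 3 lay near the knockout values, and the gene did not pass in edgeR (-1.37 ± 0.45, edgeR adjusted p = 0.0879). It passed without that library (-1.70), and with all libraries in DESeq2 (-1.34, adjusted p = 0.00789) and in edgeR under the 1 CPM filter (-1.34, adjusted p = 0.0467). Ncoa3, the most abundant of the 3 per kilobase with 87.9% to 94.2% of their sum in each library, had 127 and 160 CPM in knockout and 176, 183 and 150 CPM in heterozygous libraries, and the groups overlapped (-0.24 ± 0.14, edgeR adjusted p = 0.283).

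Of 14 acetyltransferases, methyltransferases and further coactivators, 3 fell in edgeR (21.4%, against 16.4% of all genes), with a median of -0.39. By edgeR, DESeq2 or an unadjusted p under 0.05, 0 rose. Ncoa4, best known as the receptor for ferritin breakdown, fell to 2.16 and 1.77 CPM in knockout, against 10.7, 12.1 and 8.68 CPM in heterozygous libraries (-2.42 ± 0.25, edgeR adjusted p = 0.00705), and it passed whichever library was left out. Ncoa7 (-1.17 ± 0.17, edgeR adjusted p = 0.0131) and the PPAR coactivator Helz2 (-0.54 ± 0.14, edgeR adjusted p = 0.0494) also fell, and the acetyltransferase gene Kat2a had 0.03 ± 0.09 (edgeR adjusted p = 0.85). Ncoa7 did not pass without heterozygous replicate 1 or 2 (-1.12 in both) or after the length and GC adjustment (-0.46). Helz2 did not pass without any library but knockout replicate 3 (-0.56 to -0.34), nor under any of the other 3 scalings or without a filter (-0.54 to -0.47).

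Tcf21, Hand2 and Msc (musculin) are factors of mesenchyme, heart and muscle, with Tcf21 and Hand2 known from hepatic stellate cells. Tcf21 had 4.40 and 4.70 CPM in knockout against 3.24, 3.42 and 4.01 CPM in heterozygous libraries, without overlap (0.36 ± 0.23, edgeR adjusted p = 0.33). Hand2 had 0.557 and 0.685 CPM in knockout and 0.560, 0.646 and 0.439 CPM in heterozygous libraries, an overlap (0.18 ± 0.47, edgeR adjusted p = 0.841). Msc had 0.292 and 0.426 CPM in knockout against 0.609, 0.532 and 0.769 CPM in heterozygous libraries, with no overlap and no call (-0.82 ± 0.51, edgeR adjusted p = 0.319). Stellate cell and fibroblast markers summed to 523 and 445 CPM in knockout and 411 to 464 CPM in heterozygous libraries, and 1 of 12 passed as higher and 4 as lower. Hand2 shares 19.6% and Msc 21.2% of its exon length with a gene on the opposite strand, and 0 of the 3 passed or had an unadjusted p under 0.05 in edgeR, DESeq2 or limma-voom. Of 62 further bHLH genes outside the 37, 17 were tested. Limma-voom called 0 of them and DESeq2 called 1. In edgeR 0 of these 17 passed, against 16.4% of all genes, and the median was -0.40. An unadjusted p under 0.05 was found for 3 of them, and for 5499 of all 16436 genes. The most abundant of them was Atoh8, at 2.39 and 1.40 CPM in knockout and 3.24, 2.76 and 3.32 CPM in heterozygous libraries (-0.72 ± 0.33, edgeR adjusted p = 0.194).

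Per kilobase of exon, the highest of the 37 genes in knockout libraries were Tfe3 (34.0 CPM per kb), Max (32.8), Hes6 (29.9), Srebf1 (29.1) and Myc (27.7). In heterozygous libraries they were Max (29.7), Hes1 (27.7), Myc (26.6), Tfe3 (24.3) and Hes6 (22.2). The lowest were Bhlhe41 and Mga in both genotypes. Tfe3 and Srebf1 stood apart between genotypes in every library, whereas the order of Max and Myc among the top genes lay within the spread of their libraries.

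The 4 genes that rose had 49.4% to 58.4% GC (median 51.3%), and the 6 that fell 40.3% to 56.6% (median 47.1%). The other 27 had 42.2% to 63.2% (median 52.6%). Over all genes the median was 0.21 on the log2 scale for the shortest 25% of transcripts and -0.31 for the longest 25%, and 18 of the 37 genes fell in the longest. Mlxipl, at 56.6% GC, was the 1 gene of the 6 above 54.3%, where the GC-richest 25% of transcripts begin, and its estimate was -1.55 after the adjustment (edgeR adjusted p = 0.0255), against -1.33 before it.

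The same adjustment also ended calls among the pathway genes named above. On the log2 scale, genes that had risen came to 0.27 for Ncstn, 0.33 for Sin3b, 0.42 for Flcn, 0.32 for Mcoln1, 0.14 for Gabarapl1, 0.23 for Nr1h2, 0.40 for Rrp9 and 0.13 for Aldoa and no longer passed. Genes that had fallen came to -0.55 for Sin3a, -2.09 for Atp6v0d2, -0.46 for Insig2, -0.75 for Npm1, -0.57 for Ncl, -0.28 for P4ha1, -0.32 for Ero1l, -0.46 for Ncoa7 and -0.54 for Helz2 and no longer passed. Adam10, Adam17, Maml2, Tle3, Cul2, Bnip3l, Cyp1a2, Lpcat2, Hsp90ab1, Lamtor1, Acp5, Sqstm1, Acacb, Scd1, Fasn, Me1, Pno1, Gpd1, Tkfc, Pklr and Ncoa4 still passed, though Acp5 came to 0.35, Sqstm1 to 0.34, Adam17 to -0.63 and Bnip3l to -0.68. Without a filter Gabarapl1 (0.40) and Mcoln1 (0.41) did not pass, nor did Mcoln1 with library-size scaling (0.39) or Atp6v0d2 in limma-voom (-2.37).

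**Figure D5:**
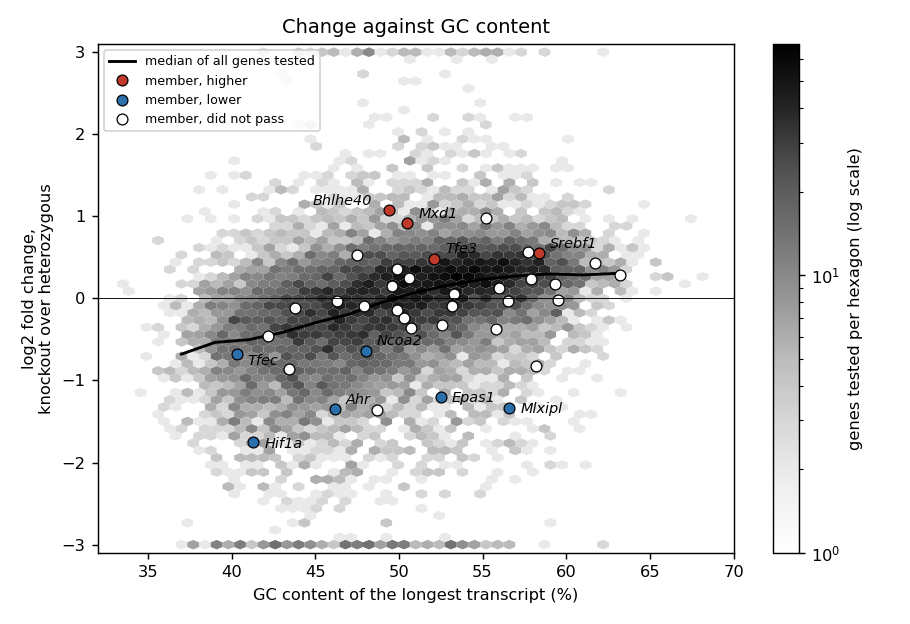
Log2 fold change, knockout over heterozygous, against the GC content of the longest transcript in percent, with all tested genes as shaded hexagons (darker for more genes) the 37 bHLH genes as points (members in the key; red or blue where they passed as higher or lower) and a black line for the median of all genes in bins of 2 percentage points of GC. Genes beyond a log2 fold change of 3 in either direction are drawn at the edge; the 4 genes that rose lie between 49.4% and 58.4% GC and Tfec, the lowest in GC, at 40.3%.

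E-boxes occur in the promoters of the family itself. RefSeq windows of 250 bases before the start (GRCm38.p6) were at hand for 26 of the 37 genes, with 38 windows in all, and 6 of the 10 genes that passed had 1 or more. CACGTG, the palindrome bound by MYC, USF, MiT/TFE, DEC and MLX dimers, was in 6 of the 38 windows (15.8%), those of Bhlhe41, Hif1a, Mlx, Mlxipl, Mnt and Mxd4, against 6.02% of all 32851 windows. CAGCTG was in 5 windows (13.2%, against 13% of all), and CACCTG or its other strand CAGGTG, the E-protein type, in 5 (13.2%, against 17.2% of all). The palindromes read alike on both strands, and no motif overlaps another at the same bases in the windows printed. Hif1a and Mlxipl were the genes among the 10 with such letters and are shown with Mxd1, which has none of them. In Hif1a (chr12:73907617-73907866, plus strand) CACGTG lies 135 bases and CAGCTG 112 and 101 bases before the start. In Mlxipl 1 start (chr5:135106641-135106890, plus strand) has CACCTG at 100 and CAGCTG at 25 bases before it, and the other (chr5:135089640-135089889, plus strand) has CACGTG at 98 bases. The Mxd1 window is chr6:86669160-86669409 on the minus strand. Each runs 5′ to 3′, and capitals mark the motifs. A match is a description of letters and not of binding.
Hif1a: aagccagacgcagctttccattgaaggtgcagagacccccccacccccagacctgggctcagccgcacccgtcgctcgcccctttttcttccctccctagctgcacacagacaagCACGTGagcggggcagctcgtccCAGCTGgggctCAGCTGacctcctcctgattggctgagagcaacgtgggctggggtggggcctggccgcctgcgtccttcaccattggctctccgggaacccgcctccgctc
Mlxipl, first: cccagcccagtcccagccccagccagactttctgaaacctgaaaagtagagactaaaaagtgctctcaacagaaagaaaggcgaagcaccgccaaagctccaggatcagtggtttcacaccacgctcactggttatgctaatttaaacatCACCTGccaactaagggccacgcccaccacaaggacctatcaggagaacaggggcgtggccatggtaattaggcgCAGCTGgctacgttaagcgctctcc
Mlxipl, second: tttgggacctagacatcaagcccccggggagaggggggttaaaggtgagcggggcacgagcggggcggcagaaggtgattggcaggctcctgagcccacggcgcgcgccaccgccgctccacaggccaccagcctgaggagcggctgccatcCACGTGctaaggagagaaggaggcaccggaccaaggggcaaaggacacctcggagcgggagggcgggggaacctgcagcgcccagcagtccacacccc
Mxd1: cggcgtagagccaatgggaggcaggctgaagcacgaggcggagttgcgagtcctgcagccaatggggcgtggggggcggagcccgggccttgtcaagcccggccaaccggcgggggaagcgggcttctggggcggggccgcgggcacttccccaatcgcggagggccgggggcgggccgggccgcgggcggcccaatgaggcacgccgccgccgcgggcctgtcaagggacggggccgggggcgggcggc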

How the data were processed

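Poly-A RNA of mouse Kupffer cells was measured in 2 Id3 -/- and 3 Id3 +/- libraries; per the labels' protocols, SMART-seq V4 amplification preceded Kapa library preparation. Per the submitters' processing notes, the deposited raw counts of reads on each gene come from HTSeq 0.5.4; DESeq 1.18.0, R 3.1.2 and mm9 are named there too. Aligner, annotation release and strandedness are not given in the sources used, so reads of overlapping genes on opposite strands may be shared. Entries that name no gene, 40.0% and 42.8% of everything counted in knockout and 47.0% to 48.6% in heterozygous libraries, were left out. All 46983 genes entered edgeR 4.0.16 (R 4.3.3): filterByExpr, TMM and the quasi-likelihood test, knockout over heterozygous with no covariate, with Benjamini-Hochberg adjustment over 16436 genes and a threshold of 0.05. The common biological coefficient of variation was 0.339, on 3 residual and 3.26 prior degrees of freedom. The SE is the log2 fold change over the square root of F, in size. Depths of 74823374 to 80944135 counts put 3 counts, the floor per library, at 0.0371 to 0.0401 CPM; amplified reads are not independent molecules. The closest pair of libraries still differed by a chi-square of 33.1 per degree of freedom, more than the sampling of reads alone gives. That value cannot tell separate animals from separate amplifications of the same RNA. Each library was counted as its own sample because the labels list it so.

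Exon lengths, GC content and gene overlaps came from GENCODE M21, to which 46488 IDs matched, 37902 with the same version; that release is of a later build than mm9. RefSeq promoter coordinates are GRCm38.p6, not mm9. Levels between genes are CPM per kb of exon. Marker sums are TMM-normalised CPM, as are the single-gene values. Length and GC were adjusted with per-library splines on log2 CPM (prior count 2). Every gene of the set is named. In each of 13 pathway lists, up to 4 passing genes with the smallest p and the 1 other with the highest level are named, apart from a few genes not reported here. The set, the pathway lists and the 11 marker lists were chosen with earlier results of these data known. Alternatives were DESeq2 1.42.0, limma-voom (limma 3.58.1), RLE, upper-quartile and library-size scaling, no filter, 1 CPM in 2 samples, a robust fit, a replicate block, the length and GC adjustment with and without the block, a minimum fold (log2 fold change of 1 in size), and leaving out each library. The fits were tested on simulated data.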

Additional observations from a re-analysis of the deposited data

How the results depend on the processing

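All 10 bHLH genes that passed kept their direction in the 16 other fits. RLE and library-size scaling, the robust fit, DESeq2 and the 1 CPM filter kept all 10 calls. Upper-quartile scaling and no filter lost Ncoa2, limma-voom lost Mxd1, and the length and GC adjustment lost Ncoa2, Srebf1, Hif1a and Tfec. DESeq2 called 15 of the 37 genes and 4557 of all genes (2037 higher, 2520 lower), against 10 and 2698 (1054 higher, 1644 lower). The length and GC adjustment left 7 and 1669 (585 higher, 1084 lower). A minimum log2 fold change of 1 in size left 5 of the 37 genes, 1 of them higher, and 1267 of all genes (219 higher, 1048 lower). Leaving out each library gave 335 to 2540 genes (87 to 1032 higher, 248 to 1508 lower) and 1 to 10 of the 37 (1 to 5 higher, 0 to 7 lower). Leaving out a knockout library leaves 1, which is assumed to vary like the others. A minimum fold can only lower a count; the causes of the other shifts were not tested.

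With the replicate number as a block, 0 of the 37 genes and 1 of all genes (0 higher, 1 lower) passed, and 0 and 0 with the block and the length and GC adjustment. The numbers are shared by 2 pairs, whose deviations from the group means correlated at -0.03 and -0.06. With 2 knockout libraries the deviations of 1 mirror those of the other, so these are not independent checks. They cannot decide whether the numbers pair the libraries, which the main fit takes as unpaired. The block leaves fewer residual degrees of freedom than the 3 of the main fit. Heterozygous replicate 1, alone in its block, adds nothing to the comparison of genotypes. The lost calls cannot be told apart from this loss of degrees of freedom. Under the block the sign turned for Hey1 (0.13), Max (-0.034), Mxd3 (0.24) and Acly (-0.0043). With the block and the adjustment it turned for Tfeb (-0.064), Usf1 (-0.18), Myc (-0.14), Max (-0.14), Mxi1 (0.26), Mga (0.17), Arnt (0.092), Ahrr (0.28), Hand2 (-0.11), Aes (-0.14), Acly (-0.056), Cdk4 (-0.041) and Kat2a (-0.25).

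Signs turned in genes that did not pass, and in no gene that did. The length and GC adjustment turned Hes6 (-0.0023), Tfeb (-0.059), Usf1 (-0.16), Myc (-0.16), Mxi1 (0.28), Mga (0.11), Arnt (0.064), Ahrr (0.30), Hand2 (-0.14), Aes (-0.16), Acly (-0.038) and Kat2a (-0.22). Upper-quartile scaling turned Mxd3 (0.030), Mxi1 (0.036), Mnt (0.043) and Nr1h3 (0.066). The 1 CPM filter turned Mnt (0.0038) and Nr1h3 (0.027), and DESeq2 turned Mnt (9.67e-06) and Nr1h3 (0.022). Nr1h3 also turned under RLE (0.022), library size (0.00072) and no filter (0.0070), and Acly under limma-voom (-0.0045). Over the fits that left out a library, estimates ranged from -0.56 to 0.12 for Hey1, -0.021 to 0.14 for Myc, -1.35 to 0.22 for Mycl, -0.26 to 0.47 for Max, -0.21 to 0.24 for Mxd3, -0.13 to 0.07 for Mxi1, -0.12 to 0.14 for Mnt, -0.27 to 0.074 for Arnt, -0.22 to 0.046 for Ahrr, -0.14 to 0.20 for Ctsb, -0.13 to 0.12 for Nr1h3 and -0.30 to 0.29 for Acly. Bhlhe41, Hand2 and Msc had no value under the 1 CPM filter.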
